A study of Mus musculus with 2 samples.

Results

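The 9 genes described here encode the killing machinery and the receptors of cytotoxic lymphocytes. They are Nkg7, Gzma, Gzmb, Prf1 and Ctsw of the cytotoxic granule, the receptor genes Klrd1, Klrk1 and Il2rb, and the transcription factor gene Eomes. They were listed by symbol, and 9 of 9 were found among the 31053 genes of the deposited feature table. Their unique molecular identifiers (UMIs, 1 for each captured RNA molecule) were counted in pancreatic cells of mice after pancreatitis, in EYFP positive cells and in EYFP negative cells, with 1 library for each. Both libraries came from mice labelled R26[CA]30EYFP on a C57Bl/6J background, and the treatment label reads None for both. The sources used here do not state which promoter drives the reporter, how many animals were used, how old they were or when after pancreatitis cells were taken. EYFP has no row in the feature table, and the sort could therefore not be checked by its RNA. With 1 library per group no difference between EYFP positive and EYFP negative cells could be tested against replicates. All intervals are 95% intervals for counting error within a library only.

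Natural killer (NK) cells and cytotoxic CD8 T cells kill by releasing granules onto a target cell. Perforin, the product of Prf1, opens the target membrane, and granzymes, the serine proteases encoded by Gzma and Gzmb, enter and cleave proteins inside. Nkg7 encodes a membrane protein of those granules, and Ctsw encodes cathepsin W, a cysteine protease found mainly in NK and cytotoxic T cells. Klrd1 encodes CD94, which pairs with NKG2 proteins to read the non-classical class I molecule Qa-1, the product of H2-T23. Klrk1 encodes NKG2D, an activating receptor for stress-induced ligands of the Raet1, H60 and Ulbp1 families. Il2rb encodes the beta chain shared by the IL-2 and IL-15 receptors, and Eomes encodes a T-box factor needed for NK cell maturation and used by memory CD8 T cells.

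In GENCODE M21, looked up by the gene identifier, the 9 protein-coding genes lie on 8 chromosomes. The granule genes are Nkg7 (chr7:43437073-43438249, plus strand), Gzma (chr13:113093825-113100981, minus strand), Gzmb (chr14:56258838-56262260, minus strand), Prf1 (chr10:61297833-61304680, plus strand) and Ctsw (chr19:5465043-5468507, minus strand). Klrd1 (chr6:129591782-129598775, plus strand) and Klrk1 (chr6:129610323-129623864, minus strand) lie near each other on chromosome 6. Il2rb (chr15:78479256-78495271, minus strand) and Eomes (chr9:118478212-118486132, plus strand) complete the set. Ctsw overlaps Fibp, which lies on the opposite strand and had 293 UMIs, and the sources do not say whether strand was used in counting. The 250 bases before the RefSeq start (GRCm38.p6) of 4 members are shown, since these genes, which encode the killing proteins and NKG2D, were among those that set NK-like cells apart below. They are Gzma (chr13:113100982-113101231, minus strand), Gzmb (chr14:56262335-56262584, minus strand), Prf1 (chr10:61297586-61297835, plus strand) and Klrk1 (chr6:129623865-129624114, minus strand), each written 5′ to 3′ on the strand of its gene. Capitals mark TGTGGT, the core of RUNX sites, and AGGAAG, an ETS core, on either strand. The T-box core GGTGTG was searched in the same way, and its matches can share letters with those of TGTGGT.
Gzma: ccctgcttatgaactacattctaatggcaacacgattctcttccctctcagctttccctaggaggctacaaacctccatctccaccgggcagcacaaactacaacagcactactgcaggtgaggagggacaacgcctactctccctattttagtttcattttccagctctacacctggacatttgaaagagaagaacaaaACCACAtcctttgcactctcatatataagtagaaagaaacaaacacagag
Gzmb: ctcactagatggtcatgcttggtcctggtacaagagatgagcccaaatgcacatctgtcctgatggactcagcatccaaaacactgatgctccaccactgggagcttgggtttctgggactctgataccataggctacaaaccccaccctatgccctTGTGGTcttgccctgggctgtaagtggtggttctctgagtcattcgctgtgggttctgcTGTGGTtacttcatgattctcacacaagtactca
Prf1: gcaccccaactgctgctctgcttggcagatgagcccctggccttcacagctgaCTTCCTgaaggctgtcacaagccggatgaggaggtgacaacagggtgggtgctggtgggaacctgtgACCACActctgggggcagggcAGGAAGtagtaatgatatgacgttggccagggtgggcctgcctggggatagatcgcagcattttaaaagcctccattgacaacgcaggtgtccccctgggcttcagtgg
Klrk1: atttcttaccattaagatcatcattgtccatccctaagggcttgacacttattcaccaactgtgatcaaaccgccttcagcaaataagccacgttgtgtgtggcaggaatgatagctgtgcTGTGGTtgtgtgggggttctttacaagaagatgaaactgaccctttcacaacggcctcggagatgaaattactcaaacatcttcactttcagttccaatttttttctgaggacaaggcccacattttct

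The RUNX letters were found once in the Gzma stretch at -50 to -45 from the start, at -93 to -88 and -34 to -29 in Gzmb, at -130 to -125 in Prf1 and at -129 to -124 in Klrk1. The ETS letters were found in Prf1 only among these 4, at -197 to -192 and -109 to -104. The 250 bases of Nkg7, whose RefSeq start lies inside the GENCODE gene, held all 3 motifs, and those of Eomes held none. Of 32851 mouse promoters of the same length, 4614 (14%) held TGTGGT, 9686 (29.5%) held AGGAAG and 5347 (16.3%) held GGTGTG. These matches describe letters and not bound sites.

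After filtering, 860 EYFP positive cells (median 1007.5 UMIs) and 553 EYFP negative cells (median 8020 UMIs) remained. They were grouped by clustering on 2000 variable genes with the 9 members left out, so that the members' levels did not shape the groups, and clusters were called by their marker genes. T-like cells numbered 228 among EYFP positive and 388 among EYFP negative cells. NK or innate lymphoid-like cells, called NK-like here, numbered 33 of 860 EYFP positive cells, which is 3.84% (Clopper-Pearson interval 2.66% to 5.35%). They were 14 of 553 EYFP negative cells, which is 2.53% (1.39% to 4.21%). The name of the EYFP positive cluster depends on the rule that turns markers into names, since Clu, a gene high in ductal-like cells, is among its leading genes and a stricter reading of these could leave it unnamed. Every EYFP positive NK-like value rests on that name. The NK-like cells of each library formed a cluster of their own. The EYFP positive cluster was led by Ccl5, Tyrobp, AW112010, Fcer1g and Nkg7, with Clu, Ncr1 and Xcl1 also among its leading 10 genes. The EYFP negative cluster was led by Ccl5, Tyrobp, Fcer1g, Klrk1 and Klre1. NK receptor RNA was found in 28 of 33 EYFP positive and 14 of 14 EYFP negative NK-like cells. The receptor genes counted, Ncr1 included, were among the markers that named these clusters, so their counts are no test of the name. RNA of Ncr1, which encodes the NK receptor NKp46, was found in 14 of 33 EYFP positive and 13 of 14 EYFP negative NK-like cells, and Ncr1 had 0 UMIs in the T-like cells of both. No UMI of Cd3d, Cd3e, Cd3g or Trac was found in 28 of 33 EYFP positive and 10 of 14 EYFP negative NK-like cells. With Trbc1 and Trbc2 counted too, 18 of 33 EYFP positive and 0 of 14 EYFP negative NK-like cells had no UMI. Each EYFP negative NK-like cell held 2 to 25 such UMIs. At a median of 786 UMIs per EYFP positive NK-like cell, absence of a gene is weak evidence. Summed over Cd3d, Cd3e, Cd3g, Trac, Trbc1 and Trbc2, T cell receptor RNA was at 826 CPM (UMIs of a gene per 1000000 UMIs of the class) in EYFP positive and 1043 CPM in EYFP negative NK-like cells, against 4972 CPM and 5501 CPM in T-like cells.

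Most member RNA lay in lymphocytes. NK-like, T-like and B-like cells held 86.3% of member UMIs in the EYFP positive and 97.7% in the EYFP negative library. These classes made up 371 of 860 kept EYFP positive and 509 of 553 kept EYFP negative cells. For Gzma in the EYFP positive library, 21 of 38 UMIs lay in NK-like, 11 in acinar-like and 6 in ductal-like cells. Of the 613 member UMIs in kept EYFP positive cells, 109 (17.8%) lay in NK-like and 418 (68.2%) in T-like cells. Of the 3545 in kept EYFP negative cells, 1321 (37.3%) lay in NK-like and 2130 (60.1%) in T-like cells. For comparison, of the 2745342 UMIs of all genes in kept EYFP positive cells, NK-like cells held 30283 and T-like cells 718853. Of the 4857210 in kept EYFP negative cells, NK-like cells held 125555 and T-like cells 3380999. The share held by NK-like cells differed from gene to gene. In the EYFP negative library it was 329 of 332 UMIs of Gzma (99.1%), 180 of 224 of Klrk1 (80.4%), 19 of 29 of Gzmb (65.5%) and 49 of 119 of Eomes (41.2%). It was 309 of 1135 for Nkg7 (27.2%) and 73 of 496 for Ctsw (14.7%), whose RNA lay mainly in T-like cells, which were far more numerous. B-like cells, which should lack these genes, give the background. They held 2 member UMIs in 110 EYFP positive cells and 11 in 107 EYFP negative cells, at median depths of 1470.5 and 5616 UMIs. The share of B-like cells with any member UMI was 1.82% in the EYFP positive and 7.48% in the EYFP negative library.

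**Figure D1:**
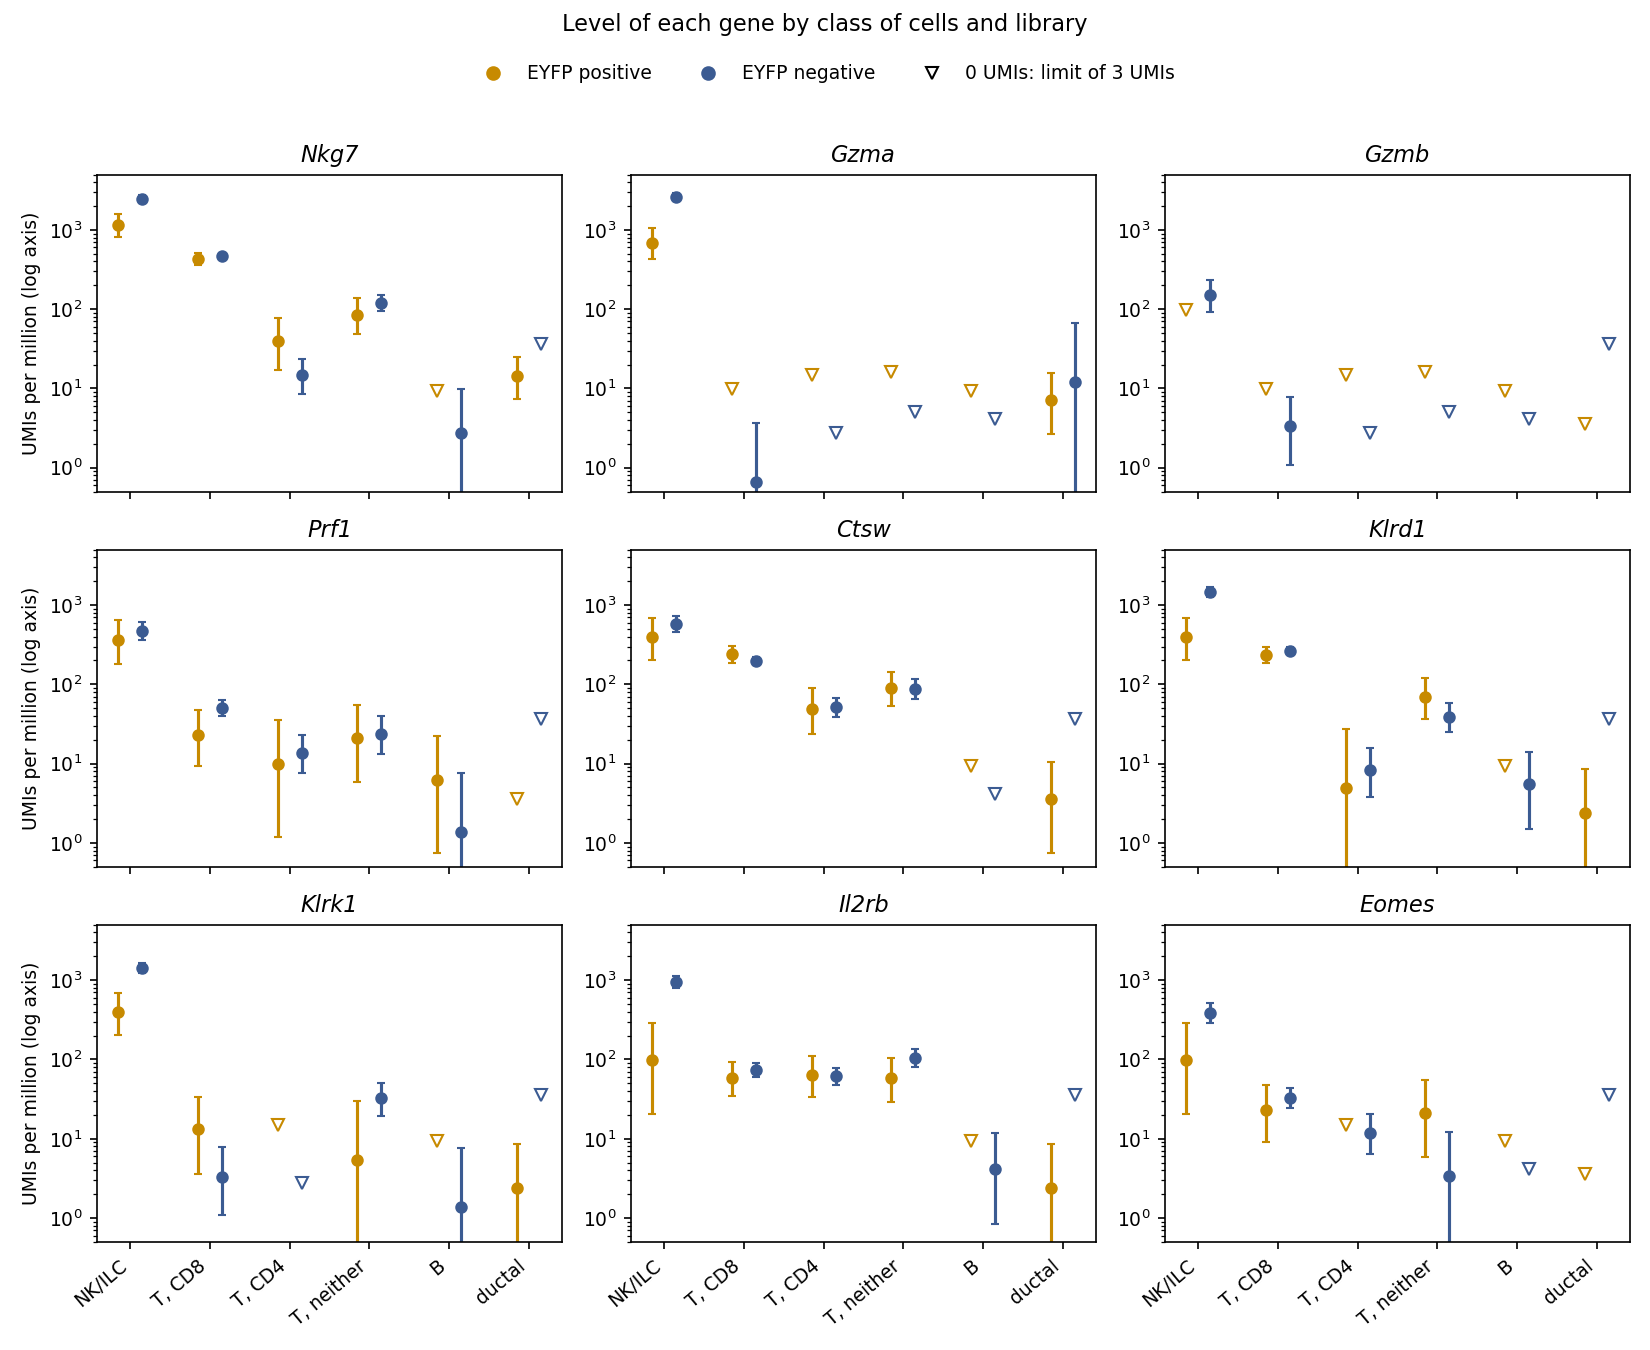
Level of each of the 9 genes in NK-like (NK/ILC), CD8, CD4 and other T-like, B-like and ductal-like cells of the EYFP positive and EYFP negative libraries, in CPM on a log axis, with 95% Poisson intervals for counting error and triangles at the limit that 0 UMIs allow. Gzma and Klrk1 separate NK-like from T-like cells most widely, and Ctsw, Nkg7 and Klrd1 have clear levels in T-like cells too.

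A gene was called higher or lower when its CPM ratio was at least 2-fold and the exact interval of the ratio did not contain 1, among genes with at least 10 UMIs over both classes. Of the members, 7 of 8 tested were higher in NK-like than in T-like cells of the EYFP positive library, where 2.49% of 6234 tested genes were. The same was true of 9 of 9 in the EYFP negative library, where 8.35% of 9628 tested genes were. The summed level of the 9 members was 3599 CPM in NK-like and 581 CPM in T-like cells of the EYFP positive library, a ratio of 6.19 (4.97 to 7.66). It was 10521 CPM in NK-like and 630 CPM in T-like cells of the EYFP negative library, a ratio of 16.7 (15.6 to 17.9). The median log2 ratio of the members was 2.65 in the EYFP positive and 3.83 in the EYFP negative library, beside -0.03 and 0.31 over all genes tested. NK-like clusters were named from receptors and adaptors that such cells carry along with these genes. At a clustering resolution of 2.0 the summed ratios were 2.43 and 4.68, and with at least 500 genes and no more than 10% mitochondrial UMIs per cell 2.89 and 6.17, in the EYFP positive and EYFP negative library. Under these settings 64 of 79 and 49 of 63 EYFP negative NK-like cells had Cd3 or Trac RNA, against 4 of 14 here. For EYFP positive NK-like cells the counts were 16 of 45 and 7 of 9, against 5 of 33 here. A gate per barcode asked for NK receptor RNA and no Cd3 or Trac UMI, and left 26 EYFP positive and 12 EYFP negative cells. With it the ratios were also lower, at 4.06 (3.24 to 5.05) and 10.5 (9.72 to 11.3). The cause of the lower ratios was not tested.

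Among the granule genes, Gzma showed the widest gap between NK-like and T-like cells. EYFP positive NK-like cells held 21 Gzma UMIs (693 CPM), against 0 in 228 T-like cells, where 0 UMIs allow up to 4.17 CPM, so the level was at least 166-fold higher. That bound holds only for barcodes classed as T-like. A further 11 Gzma UMIs lay in 7 acinar-like barcodes with at least 2 T cell receptor UMIs, described below. Counting those barcodes as T-like would lower the ratio. EYFP negative NK-like cells held 329 (2620 CPM), against 2 UMIs in 388 T-like cells, a ratio of 4430 (1217 to 36731). In the NK-like, T-like and B-like classes, Gzma RNA was thus almost wholly in NK-like cells. Gzmb was sparse, and no kept EYFP positive cell had a UMI of it. In the EYFP negative library 19 Gzmb UMIs lay in 4 of 14 NK-like cells (151 CPM, 91.1 to 236) and 10 in 2 of 388 T-like cells (2.96 CPM), a ratio of 51.2 (22.6 to 123). Without the 1 cell with the most Gzmb UMIs, an NK-like cell with 9, the ratio was 28.4 (10.6 to 76.0), and without the top cell of both classes it was 56.7 (17.6 to 211). The Gzma ratio of that library was 6820 (1213 to 270460) without the top cell of both classes, with 1 UMI left in T-like cells. Prf1 RNA was carried by both kinds of cell at different levels. Its level was 363 CPM in NK-like and 20.9 CPM in T-like cells of the EYFP positive library, a ratio of 17.4 (7.23 to 40.6). It was 470 CPM in NK-like and 33.1 CPM in T-like cells of the EYFP negative library, a ratio of 14.2 (10.2 to 19.6).

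Nkg7 and Ctsw, the other granule genes, were shared more evenly between NK-like and T-like cells. Nkg7 was at 1156 CPM in NK-like and 216 CPM in T-like cells of the EYFP positive library, a ratio of 5.36 (3.60 to 7.78). It was at 2461 CPM in NK-like and 238 CPM in T-like cells of the EYFP negative library, a ratio of 10.4 (9.06 to 11.8). Every EYFP negative NK-like cell had between 3 and 42 Nkg7 UMIs. Ctsw had the lowest ratio among the granule genes in both libraries. It was at 396 CPM in NK-like and 143 CPM in T-like cells of the EYFP positive library, a ratio of 2.77 (1.38 to 5.04). EYFP negative cells had 581 CPM in the NK-like and 124 CPM in the T-like class, a ratio of 4.69 (3.61 to 6.03).

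Among the receptor genes, Klrk1 (NKG2D) set NK-like cells apart from T-like cells, and Klrd1 (CD94) did so less. Klrk1 was at 396 CPM in EYFP positive NK-like cells, with 12 UMIs in 11 cells, against 6.96 CPM in T-like cells, whose 5 UMIs lay in 2 of 228 cells. The ratio was 57.0 (18.7 to 206), which was 281 (41.6 to 12029) without the 1 cell with the most Klrk1 UMIs, a T-like cell with 4. It was 242 (34.4 to 10507) without the top cell of both classes. Klrk1 was found in 14 of 14 EYFP negative NK-like cells at 1434 CPM and in 10 of 388 T-like cells at 7.39 CPM, a ratio of 194 (127 to 308), or 333 (193 to 624) without the top cell of both classes. Klrd1 was found in T-like cells too. It was at 396 CPM in NK-like and 120 CPM in T-like cells of the EYFP positive library, a ratio of 3.31 (1.65 to 6.09). At a clustering resolution of 2.0 it was 0.886 (0.449 to 1.62), the reverse direction but with an interval that contained 1. Of 45 EYFP positive NK-like cells, 16 then held Cd3 or Trac RNA, against 5 of 33 here. Among EYFP negative cells 183 Klrd1 UMIs in NK-like cells and 438 in T-like cells gave a ratio of 11.3 (9.42 to 13.4).

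Il2rb, the cytokine receptor chain, and Eomes, the transcription factor, were low in the shallow EYFP positive NK-like cells. Il2rb had 3 UMIs in NK-like and 43 UMIs in T-like cells of that library, a ratio of 1.66 (0.329 to 5.17), the member that was tested there and not called. Among EYFP negative cells it was at 956 CPM in NK-like and 74.5 CPM in T-like cells, a ratio of 12.8 (10.2 to 16). Eomes had 3 UMIs in EYFP positive NK-like cells and 11 in T-like cells, a ratio of 6.47 (1.16 to 24.5), which no longer excluded 1 without the top cell of both classes, at 5.38 (0.565 to 26.0). It had 49 UMIs in 12 of 14 EYFP negative NK-like cells and 69 in 34 of 388 T-like cells, a ratio of 19.1 (13.0 to 28.0).

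The 14 EYFP negative NK-like cells could be read one by one. Each carried RNA of 6 to 9 of the members (median 7.5), and 4 cells had all 9. Nkg7, Ctsw, Klrd1 and Klrk1 were found in 14 of 14, Il2rb in 13, Prf1 and Eomes in 12, Gzma in 9 and Gzmb in 4. In UMIs per cell Gzma had the widest range of the 9, from 0 to 86. It had 7 to 86 UMIs in 8 of the cells and 0 or 1 UMI in the other 6.

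**Figure D2:**
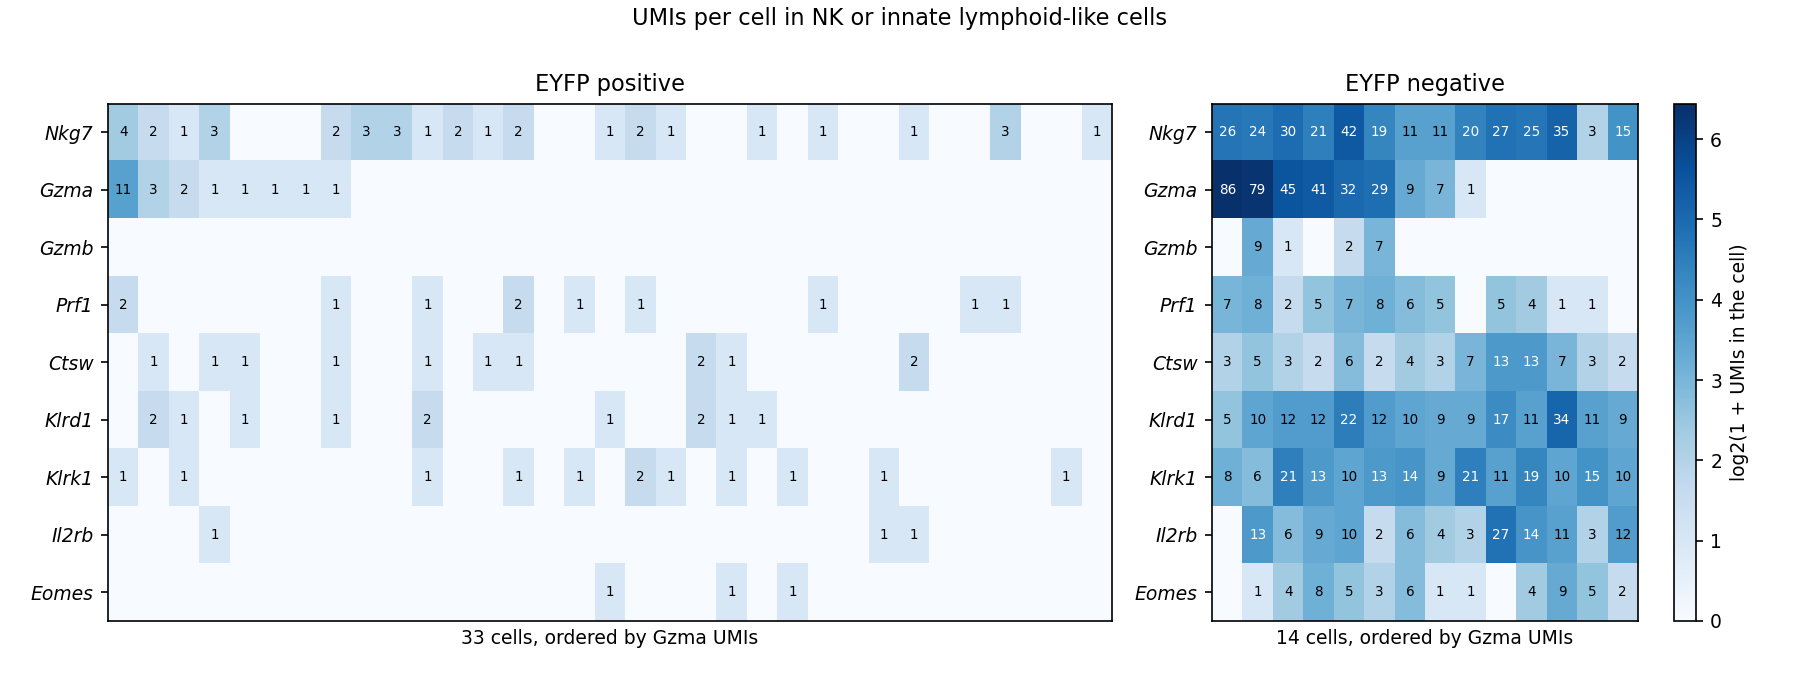
UMIs of each of the 9 genes (rows) in each of the 33 EYFP positive (left) and 14 EYFP negative (right) NK-like cells (columns), ordered by Gzma UMIs, with colour as log2 of 1 plus UMIs. The 8 EYFP negative cells with 7 or more Gzma UMIs include the 4 cells with Gzmb, and Nkg7, Ctsw, Klrd1 and Klrk1 are present in all 14 EYFP negative cells.

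Cells were set side by side by their Gzma UMIs after the values were seen, so what follows is a description with no test, of 14 cells from 1 library. The 8 cells with 7 or more Gzma UMIs had a median of 6576 UMIs in all, and the 6 with at most 1 had a median of 10706. The genes named with it were also chosen after their values were seen. Prf1, Gzmb and Nkg7 were higher in the cells with more Gzma. Prf1 had 48 UMIs in the 8 cells and 11 in the 6 cells, a CPM ratio of 4.70 (2.41 to 10.0). All 19 Gzmb UMIs lay in 4 of the 8 cells. Nkg7 had 184 UMIs in the 8 cells and 125 in the 6 cells, a ratio of 1.58 (1.26 to 2.01). Among the other members the receptor genes and Eomes did not differ beyond their intervals, with ratios of 1.09 for Klrd1, 1.18 for Klrk1, 1.44 for Eomes and 0.769 for Il2rb, and Ctsw had a ratio of 0.670 (0.402 to 1.1). Some NK receptor genes that are not members differed in their summed UMIs by more than counting error. Klra1 had a ratio of 3.71 (1.72 to 8.86), Klra8 of 2.29 (1.47 to 3.63), Klrb1c of 2.23 (1.42 to 3.56), Klre1 of 1.93 (1.39 to 2.71), Ncr1 of 1.78 (1.1 to 2.93) and Klra4 of 1.61 (1.17 to 2.22). Klra7 ran the other way at 0.547 (0.343 to 0.856), as did the granule gene Srgn at 0.643 (0.416 to 0.981). Klra8 and Klra4 were each found in 5 of the 8 cells and 4 of the 6 cells. All 9 Klra1 UMIs of the 6 cells lay in 1 cell, and 37 of the 100 Klra4 UMIs of the 8 cells lay in 1. These receptor ratios thus rest on few cells, and their intervals do not cover the spread between cells. Serpinb9 and Serpinb6b encode inhibitors of serine proteases, Serpinb9 that of granzyme B. Serpinb9 had 15 UMIs in the 8 cells and 2 in the 6 cells, and Serpinb6b had 18 in the 8 cells and 2 in the 6 cells. Klf2, a factor of quiescence and circulation, had 49 UMIs in the 8 cells and 5 in the 6 cells, a ratio of 10.6 (4.23 to 33.9). Zeb2, a factor of late NK maturation, had 23 UMIs in the 8 cells and 7 in the 6 cells, a ratio of 3.54 (1.47 to 9.76). Tcf7, which encodes TCF-1 of less mature and memory-like lymphocytes, ran the other way, with 5 UMIs in the 8 cells and 23 in the 6 cells, a ratio of 0.234 (0.0695 to 0.629). Il7r, the IL-7 receptor chain, had 1 UMI in the 8 cells and 10 in the 6 cells, of which 8 lay in 1 cell.

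The 33 EYFP positive NK-like cells had a median of 786 UMIs, against 8771.5 in the 14 EYFP negative cells, and each gave a thin reading. The median was 2 members per cell (0 to 5), and 29 of 33 had at least 1. Nkg7 was found in 19 of 33, Klrk1 in 11, Ctsw in 10, Klrd1 and Prf1 in 9 each, Gzma in 8, Il2rb and Eomes in 3 each and Gzmb in 0. Of the 21 Gzma UMIs, 11 lay in 1 cell, which also had 4 of Nkg7, 2 of Prf1 and 3 of Ncr1. In the 9 cells with at least 1000 UMIs, thinned to 1000, the mean was 2.44 members per cell, against 4.76 in the 14 EYFP negative cells thinned in the same way, with 24 EYFP positive and 0 EYFP negative cells left out.

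Relative to all their RNA, EYFP positive NK-like cells had less of the members than EYFP negative NK-like cells. The summed level was 3599 CPM in EYFP positive and 10521 CPM in EYFP negative NK-like cells, a ratio of 0.342 (0.279 to 0.416). Of the 9 members, 6 were lower, where 6.89% of 2394 tested genes were, and the median log2 ratio was -1.80 for the members and -0.61 for all genes tested. Il2rb was at 99.1 CPM in EYFP positive and 956 CPM in EYFP negative NK-like cells, a ratio of 0.104 (0.0211 to 0.310). Eomes had a ratio of 0.254, Gzma of 0.265 (0.167 without the top cell of both libraries), Klrd1 of 0.272, Klrk1 of 0.276 and Nkg7 of 0.470. The perforin and cathepsin W genes were nearer to each other in the libraries and were not called, with ratios of 0.773 (0.366 to 1.49) for Prf1 and 0.682 (0.337 to 1.26) for Ctsw. Gzmb had 0 UMIs in EYFP positive cells, which allows up to 99.1 CPM, against 151 CPM (91.1 to 236) in EYFP negative cells. That limit lies below 151 CPM, but by less than 2-fold, so Gzmb was not called at this depth. The 19 EYFP negative UMIs lay in 4 cells. Without the cell with the most of them, the ratio at that limit was 1.18.

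RNA of other pancreatic cells moved with that difference. The summed level of a list of 44 acinar genes was 29224 CPM in EYFP positive and 111.5 CPM in EYFP negative NK-like cells. That of ductal marker genes was 3632 CPM in EYFP positive and 7.96 CPM in EYFP negative NK-like cells, and Clu or Spp1, both high in the ductal-like cells, was found in 20 of 33 EYFP positive and 0 of 14 EYFP negative NK-like cells. T-like cells had 9127 CPM of the acinar list in the EYFP positive and 95.5 CPM in the EYFP negative library. With acinar, mitochondrial and ribosomal genes taken out of the totals, the ratio of the 9 members between EYFP positive and EYFP negative NK-like cells was 0.331. The part of cell quality, of cell mixture in a droplet and of the depth gap in the difference was not tested.

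Over all T-like cells of a library, no member differed between the EYFP positive and EYFP negative library by more than counting error allows. The T-like cells of the libraries lay in different clusters, however, with 143 EYFP positive and 0 EYFP negative cells in one and 12 EYFP positive and 292 EYFP negative cells in another, and levels within clusters are given further on. The 9 members summed to 581 CPM in EYFP positive and 630 CPM in EYFP negative T-like cells, a ratio of 0.923 (0.829 to 1.03), or 0.887 (0.794 to 0.989) without the cell with the most member UMIs of each library. None of the 8 tested members was called in either direction, where 3.60% of 9797 tested genes were, and the median log2 ratio was -0.22 for the members and -0.07 for all genes. Nkg7 was at 216 CPM in EYFP positive and 238 CPM in EYFP negative T-like cells, a ratio of 0.908 (0.759 to 1.08). Ctsw was at 143 CPM in EYFP positive and 124 CPM in EYFP negative T-like cells, a ratio of 1.16 (0.923 to 1.44). Klrd1 was at 120 CPM in EYFP positive and 130 CPM in EYFP negative T-like cells, a ratio of 0.923 (0.724 to 1.17). For Nkg7, Ctsw and Klrd1 the intervals lie within 2-fold in both directions, as far as these 2 libraries go. The rarer genes were less closely bounded, with ratios of 0.803 (0.567 to 1.11) for Il2rb, 0.630 (0.341 to 1.08) for Prf1, 0.750 (0.358 to 1.43) for Eomes and 0.941 (0.281 to 2.50) for Klrk1. The Klrk1 ratio was 1.67 (0.472 to 4.92) without the 1 cell with the most Klrk1 UMIs, an EYFP negative cell with 11 of the 25. It was 0.339 (0.00801 to 2.23) without the top cell of both libraries, so its direction is not settled.

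The share of T-like cells with member RNA was higher in the deeper EYFP negative library, and the shares were closer at equal depth. At least 1 member was found in 42.5% of EYFP positive T-like cells, with a median of 1209 UMIs, and in 69.1% of EYFP negative T-like cells, with a median of 8535. When each cell with at least 1000 UMIs was thinned to 1000, the shares were 34.8% of 124 EYFP positive and 32.8% of 387 EYFP negative cells, with 104 and 1 cells left out. Thinned shares for single genes were as near to each other. They were 14% and 14.6% for Nkg7, 11.4% and 9.76% for Ctsw, 10.2% and 9.18% for Klrd1 and 6.31% and 6.53% for Il2rb, in EYFP positive and EYFP negative T-like cells.

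Within T-like cells, the members were in large part genes of cells with CD8 RNA. T-like cells were read as CD8 when they had Cd8a or Cd8b1 UMIs and no Cd4 UMI, and as CD4 when they had Cd4 UMIs and neither CD8 gene. There were 71 CD8 and 35 CD4 cells in the EYFP positive library, with medians of 1920 and 6772 UMIs. There were 145 CD8 and 132 CD4 cells in the EYFP negative library, with medians of 10028 and 8061.5 UMIs. A further 117 EYFP positive and 86 EYFP negative T-like cells had UMIs of neither, with medians of 728 and 7054.5 UMIs, and 5 EYFP positive and 25 EYFP negative cells had both. The summed level was 1022 CPM in CD8 and 167 CPM in CD4 cells of the EYFP positive library, a ratio of 6.12 (4.29 to 9.0). It was 1096 CPM in CD8 and 162 CPM in CD4 cells of the EYFP negative library, a ratio of 6.78 (5.80 to 7.96). In the EYFP positive library 3 of 4 tested members were higher in CD8 cells, where 2.22% of 5220 genes were, and in the EYFP negative library 5 of 6, where 2.22% of 9007 were. The summed ratio was 14.7 and 11.2 under the stricter cell filter, and 9.82 and 9.53 at a clustering resolution of 2.0, in the EYFP positive and EYFP negative library.

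Nkg7 and Klrd1 carried the gap between CD8 and CD4 cells. Nkg7 was at 429 CPM in CD8 and 39.3 CPM in CD4 cells of the EYFP positive library, a ratio of 10.9 (5.38 to 25.8), or 25.6 (8.52 to 126) without the top cell of both classes. It was at 470 CPM in CD8 and 14.7 CPM in CD4 cells of the EYFP negative library, a ratio of 32.0 (19.6 to 56.3). Nkg7 was found in 47.9% of CD8 and 8.57% of CD4 cells of the EYFP positive library, and in 84.8% of CD8 and 8.33% of CD4 cells of the EYFP negative library. Klrd1, the CD94 gene, was at 236 CPM in CD8 and 4.91 CPM in CD4 cells of the EYFP positive library, a ratio of 48.0 (8.35 to 1923). EYFP negative CD8 cells had 266 CPM and CD4 cells 8.27 CPM, a ratio of 32.1 (16.8 to 70.8). Ctsw was higher in CD8 cells by less, with ratios of 4.87 (2.50 to 10.6) in the EYFP positive and 3.79 (2.84 to 5.14) in the EYFP negative library. Prf1 could be tested in the EYFP negative library, where it was at 50.8 CPM in CD8 and 13.8 CPM in CD4 cells, a ratio of 3.68 (2.1 to 6.90).

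Il2rb did not differ between CD8 and CD4 cells beyond its intervals. Il2rb was at 59.0 CPM in CD8 and 63.8 CPM in CD4 cells of the EYFP positive library, a ratio of 0.924 (0.428 to 2.05), which was 1.45 (0.599 to 3.85) without the 1 cell with the most Il2rb UMIs, a CD4 cell with 5, and 1.18 (0.461 to 3.24) without the top cell of both classes. Its ratio in the EYFP negative library was 1.20 (0.881 to 1.66). Eomes was higher in CD8 cells of the EYFP negative library by 2.74 (1.46 to 5.50). All 13 Eomes UMIs of CD4 cells lay in 1 cell, while those of CD8 cells lay in 29 of 145 cells. Klrk1 was scarce in CD8 cells, with 4 UMIs in 1 EYFP positive cell and 5 UMIs in the EYFP negative cells, and CD4 cells had 0 in both libraries. Granzyme genes were all but absent from T-like cells, with 0 UMIs of Gzma and of Gzmb for EYFP positive cells and with 2 of Gzma and 10 of Gzmb for EYFP negative cells.

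**Figure D3:**
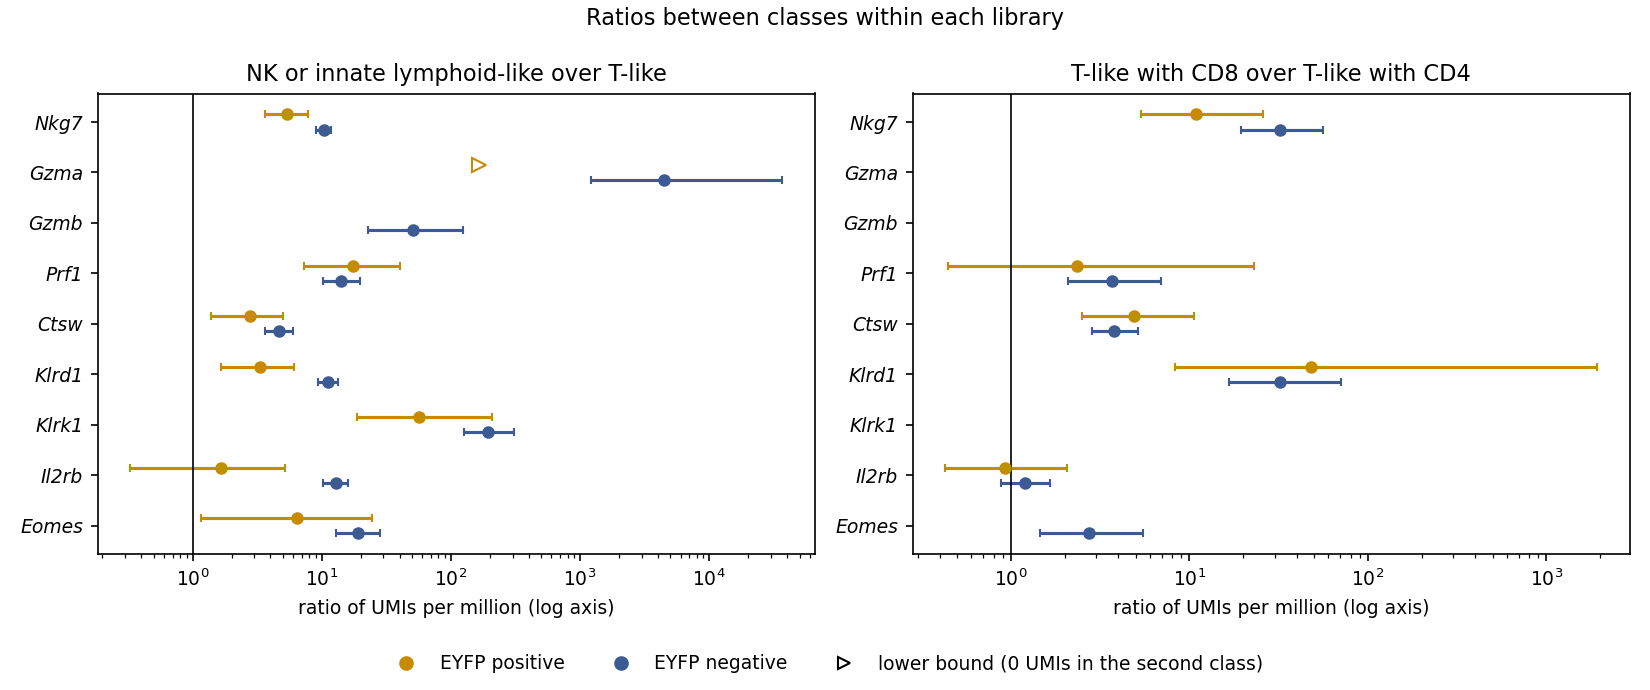
CPM ratio of each gene on a log axis with its 95% interval for counting error, for NK-like over T-like cells (left) and CD8 over CD4 T-like cells (right) within the EYFP positive and EYFP negative libraries. Gzma and Klrk1 lie farthest to the right for NK-like over T-like cells, and Nkg7 and Klrd1 do so for CD8 over CD4 cells, where Il2rb lies near 1.

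Many CD8 cells had RNA of several members. Nkg7 was found in 34 of 71 EYFP positive and 123 of 145 EYFP negative CD8 cells. Of 71 EYFP positive CD8 cells, 20 had both Nkg7 and Klrd1, 25 had both Nkg7 and Ctsw, and 5 of the 6 with Prf1 also had Nkg7. Of 145 EYFP negative CD8 cells, 102 had both Nkg7 and Klrd1, 91 had both Nkg7 and Ctsw, and 42 of the 49 with Prf1 also had Nkg7, a share near that of Nkg7 among all 145. At least 3 members were found in 29.6% of EYFP positive and 77.9% of EYFP negative CD8 cells, and in 2.86% of EYFP positive and 1.52% of EYFP negative CD4 cells. Of the T-like cells with at least 3 members, CD8 cells made 21 of 26 in the EYFP positive and 113 of 128 in the EYFP negative library. Thinned to 1000 UMIs, the mean was 0.781 members per cell in EYFP positive and 0.868 in EYFP negative CD8 cells, and 0.158 in EYFP positive and 0.143 in EYFP negative CD4 cells. Cells that share depth also share the chance of finding several genes, so co-detection is given as a description.

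**Figure D4:**
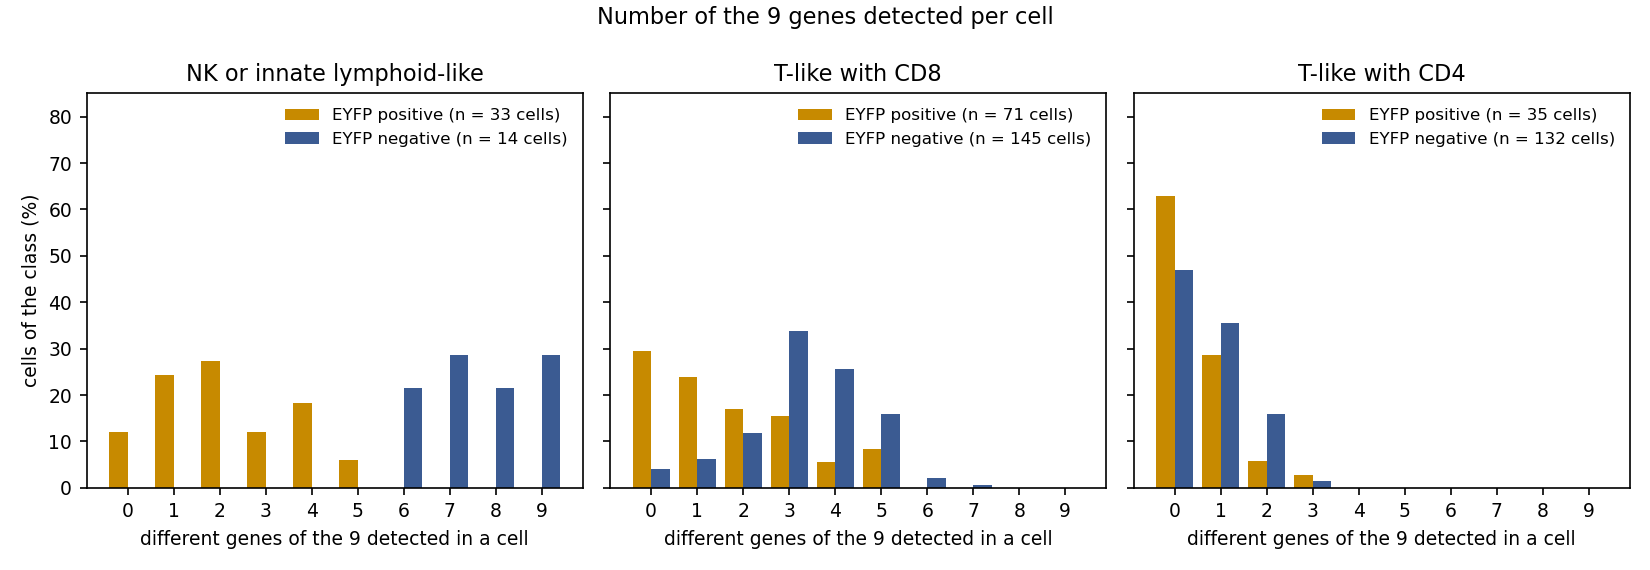
Share of cells, in percent, by how many of the 9 genes had at least 1 UMI, for NK-like, CD8 and CD4 cells of the EYFP positive and EYFP negative libraries, without thinning. EYFP negative NK-like cells have 6 to 9 of the genes, and CD4 cells of both libraries have at most 3.

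T-like cells fell into 4 clusters, numbered 0, 4, 8 and 14, that differed in member RNA and in library. Cluster 8, led by Trbc2 and Cd3g, with Ikzf2, Maf and Il7r among its leading genes, held 17 EYFP positive and 82 EYFP negative cells. In it the 9 members summed to 1017 CPM (851 to 1206) in EYFP positive and 993 CPM (921 to 1069) in EYFP negative cells. Il2rb was found in 76.5% of its EYFP positive and 74.4% of its EYFP negative cells, at 200 CPM in EYFP positive and 247 CPM in EYFP negative cells. Nkg7 was at 400 CPM in EYFP positive and 369 CPM in EYFP negative cells of cluster 8. The other clusters had less Il2rb. In cluster 14, with 12 EYFP positive and 292 EYFP negative cells, Il2rb was at 57.8 CPM in EYFP positive and 29.7 CPM in EYFP negative cells. In cluster 4, of 56 EYFP positive and 14 EYFP negative cells, Il2rb was at 16.2 CPM in EYFP positive cells with 0 UMIs in EYFP negative cells, and Nkg7 was at 184 CPM with 0 UMIs. In cluster 0, 143 cells from the EYFP positive library only with a median of 728 UMIs, Il2rb was at 45.4 CPM. Klrd1 was more even, at 123 CPM in EYFP positive and 117 CPM in EYFP negative cells of cluster 8 and at 127 CPM in EYFP positive and 136 CPM in EYFP negative cells of cluster 14. Ctsw was at 185 CPM in EYFP positive and 164 CPM in EYFP negative cells of cluster 8 and at 266 CPM in EYFP positive and 112 CPM in EYFP negative cells of cluster 14.

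**Figure D5:**
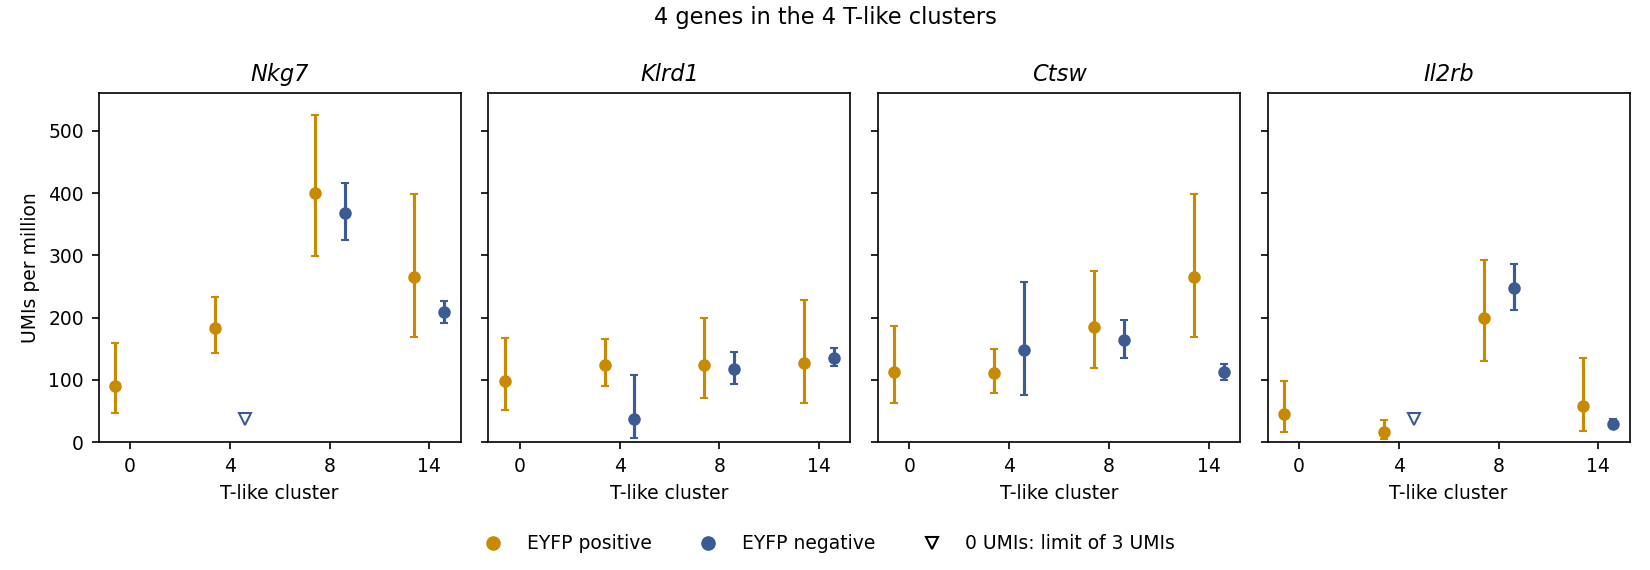
Level of Nkg7, Klrd1, Ctsw and Il2rb, in CPM with 95% Poisson intervals, in each T-like cluster, with EYFP positive and EYFP negative cells side by side. Il2rb is at 200 CPM in EYFP positive and 247 CPM in EYFP negative cells of cluster 8 and at 57.8 CPM or less in the others.

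Outside lymphocyte clusters, part of the EYFP positive member RNA was found in barcodes that also carried T cell receptor RNA. Of 84 such UMIs, 55 lay in barcodes with at least 2 T cell receptor UMIs, of which 34 were in 1 acinar-like cluster and 16 in ductal-like cells, and none of the 15 in an unnamed cluster did. That acinar-like cluster of 59 EYFP positive cells, led by Nupr1 and Rbpjl, which encodes a subunit of the acinar factor PTF1, held 11 Gzma and 13 Nkg7 UMIs. In it 12 barcodes had at least 2 UMIs of Cd3d, Cd3e, Cd3g, Trac, Trbc1 or Trbc2. These 12 held 11 of the 11 Gzma UMIs, in 7 barcodes, and 12 of the 13 Nkg7 UMIs. They also held 169 Ccl5 UMIs, found in 12 of 12, and 0 UMIs of Ncr1 and of Tyrobp. Of the other 47 barcodes, 2 had a member UMI and 0 had Ccl5. Gzma was thus seen beside T cell receptor RNA in this cluster, while the 228 EYFP positive T-like cells had 0 Gzma UMIs. The 12 barcodes had medians of 1964 UMIs and 11.6% mitochondrial UMIs, against 2101 UMIs and 4.25% in the other 47, and Rbpjl was found in 10 of the 12. Whether they hold RNA of more than 1 cell was not tested.

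Other classes held few member UMIs. In the EYFP positive library ductal-like cells had 27 in 17 of 223 cells, with 12 of Nkg7 and 6 of Gzma, and all 17 cells lay in the shallower of its ductal-like clusters, which had a median of 762 UMIs. The 28 EYFP positive cells of the deeper ductal-like cluster had 0. Fibroblast-like cells had 0 in 64 EYFP positive and 6 EYFP negative cells. An unnamed cluster led by Cd74, H2-Eb1 and Lyz2 had Klrd1 and Klrk1 and none of the granule genes. Klrd1 had 8 UMIs there in 2 of 27 EYFP positive cells and 16 UMIs in 3 of 11 EYFP negative cells. Klrk1 had 7 UMIs in 3 EYFP positive cells and 18 UMIs in 3 EYFP negative cells, 12 of the 18 in 1 cell. Relative to all RNA of that cluster, Klrk1 was at 36.7 CPM (14.8 to 75.6) in EYFP positive and 136 CPM (80.5 to 215) in EYFP negative cells. T-like cells had 6.96 CPM and 7.39 CPM. Klrd1 was at 41.9 CPM and 121 CPM in that cluster, against 120 CPM and 130 CPM in T-like cells. Among 13 EYFP negative erythroid-like cells, 5 had member RNA, with 21 Nkg7 and 15 Il2rb UMIs, and 31 of their 48 member UMIs lay in 1 cell. All 5 also had T cell receptor RNA, and 46 of the 48 UMIs lay in barcodes with at least 2 T cell receptor UMIs. Whether these barcodes hold RNA of more than 1 cell was not tested. Over B-like and all non-lymphoid cells the 9 members summed to 43.1 CPM in EYFP positive and 69.6 CPM in EYFP negative cells.

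The wider cytotoxic programme was read from 102 further genes in 10 lists by role, of which 98 were in the table. The shares of all tested genes called higher are those given above, and 1.91% in the EYFP positive and 1.77% in the EYFP negative library were lower in NK-like than in T-like cells. These genes took part in the clustering, so their ratios between classes describe the classes and are no test of them. In the EYFP positive library 12 of 54 tested genes were higher in NK-like than in T-like cells and 5 were lower, and 4 of 7 NK receptor genes and 3 of 6 death ligands, cytokines and chemokines were among the 12. In the EYFP negative library 45 of 80 were higher and 7 lower. There, 16 of 18 NK receptor genes were higher, 6 of 7 granule proteins, 6 of 8 death ligands, cytokines and chemokines and 5 of 9 transcription factors. Ccl5, a chemokine stored in cytotoxic cells, had ratios of 8.68 (6.71 to 11.1) in the EYFP positive and 33.1 (30.3 to 36.2) in the EYFP negative library. Tyrobp, the DAP12 adaptor of activating receptors, had ratios of 1163 (199 to 46868) in the EYFP positive library, where T-like cells had 1 UMI of it, and 1113 (580 to 2453) in the EYFP negative library. Cst7, an inhibitor of granule cathepsins, had ratios of 4.89 in the EYFP positive and 3.88 in the EYFP negative library. For the EYFP positive and EYFP negative library, Srgn, the granule proteoglycan, had ratios of 2.86 and 2.17, and Id2, a regulator of innate lymphocytes, of 4.35 and 6.15. Genes of resting T cells were lower, S1pr1, Lef1 and Il7r in both libraries. The DAP10 adaptor of NKG2D, Hcst, was not called, with ratios of 0.464 and 1.61, and Il2rg, the partner chain of Il2rb, had 0.682 and 1.02.

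Between EYFP positive and EYFP negative T-like cells 0 of 71 tested list genes were higher and 4 were lower, with a median log2 ratio of -0.09, where 1.49% and 2.11% of all tested genes were higher and lower. The 4 were Unc13d, which encodes a priming factor for granule release, with a ratio of 0.425 (0.221 to 0.749), Xcl1, and Cd44 and Cxcr3 of memory cells. Between EYFP positive and EYFP negative NK-like cells 0 of 50 were higher and 16 lower, 10 of them NK receptor genes such as Klre1 and Klra4. Of all genes tested there, 1.71% were higher and 6.89% were lower. Between CD8 and CD4 cells 9 of 40 genes were higher and 6 lower in the EYFP positive library. In the EYFP negative library 15 of 61 were higher and 6 lower. Of all tested genes 2.22% were higher in each library. The shares that were lower were 4.90% in the EYFP positive and 4.87% in the EYFP negative library. In the EYFP positive and EYFP negative library, Ccl5 had ratios of 41.6 and 29.3, Runx3, a factor of the CD8 lineage, of 3.90 and 3.09, and Cd226, an adhesion receptor, of 3.42 and 3.31. Ly6c2, a marker of memory CD8 cells, had 1 UMI in the CD4 cells of each library, with ratios of 48.7 (8.47 to 1950) in the EYFP positive and 432 (77.3 to 17109) in the EYFP negative library.

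Ligands read through the products of Klrd1 and Il2rb were measured in the cells around the lymphocytes, and those of NKG2D are not described here. H2-T23, which encodes the Qa-1 molecule read by Klrd1 pairs, was found broadly. Over B-like and non-lymphoid cells it was at 161 CPM (144 to 180) in the EYFP positive and 308 CPM (279 to 339) in the EYFP negative library. Within the EYFP positive library it was highest in endothelial-like cells at 364 CPM (282 to 462), with B-like cells at 321 CPM (262 to 390) overlapping them. It was at 110 CPM (88.8 to 135) in ductal-like, 30.1 CPM (9.78 to 70.3) in fibroblast-like and 18.6 CPM (6.05 to 43.5) in acinar-like cells. Il15, the cytokine that signals through Il2rb, had 11 UMIs (5.51 CPM) in EYFP positive and 5 UMIs (3.70 CPM) in EYFP negative B-like and non-lymphoid cells.

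The genes whose RNA went most closely with the members over single lymphocytes were found by the Pearson correlation of log1p values with the mean of the 9 members over NK-like and T-like cells. Over 261 EYFP positive cells the nearest 8 were Tyrobp, Ccl5, Fcer1g, Ncr1, Klra7, Spry2, Tm6sf1 and AW112010, with r between 0.376 and 0.558. Over 402 EYFP negative cells they were Tyrobp, Klre1, Klrb1c, Klrc2, Ccl5, Ncr1, Fcer1g and Xcl1, with r between 0.727 and 0.776. Tyrobp, Ccl5, Fcer1g and Ncr1, 4 genes, were named in both libraries. The cells of a library share its depth, and the difference between NK-like and T-like cells enters these values, so they are descriptions.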

How the data were processed

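Single-cell RNA libraries of EYFP positive and EYFP negative pancreatic cells were compared, 1 library each. The authors deposited UMI counts for each barcode and gene, whole numbers that had not been normalized. Per the labels' protocols a Chromium 5′ kit, version 1.1, was used, and an earlier reading of the barcodes left the transcript end in doubt, so no result here rests on it. Per the submitters' processing notes, Cell Ranger 2.1.0 and GRCh38 were used. The software version is 3.1.0 per the file headers, with mouse gene identifiers, so which build was mapped to remains unknown. Coordinates are those of GENCODE M21 and RefSeq GRCm38.p6 for the same genes.

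A barcode needed 200 or more genes and no more than 20% mitochondrial UMIs, and 860 of 1717 EYFP positive barcodes and 553 of 745 EYFP negative ones passed. These held 2745342 and 4857210 UMIs, and 4 barcodes occurred in both libraries, with 0 member UMIs in EYFP positive and 3 in EYFP negative ones. Clustering used scanpy 1.11.5 in Python 3.11.15 on both libraries together, without the 9 members: genes in at least 3 cells, counts scaled to 10000, log1p, 2000 variable genes, 30 components, 15 neighbours and Leiden resolution 1.0. Doublets were kept, and removal of those marked by Scrublet was an alternative. The rule that turns markers into names was written after clusters were seen. The members, gene lists and tests were chosen with earlier results of these data known.

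Counts were summed per class and library. CPM intervals are exact Poisson, ratio intervals exact conditional binomial and share intervals Clopper-Pearson, at 95% (scipy 1.17.1), and they cover counting error only. Where a sum was 0, 3 UMIs set its limit, and no ratio was given where both sums were at or under 3. The median log2 ratios add a small offset to each sum. Detection was compared at 1000 UMIs per cell from the exact expected share. Of other genes, those with most UMIs in lymphocytes in each list, those called, and those nearest the members in correlation could be named. The Gzma comparison within NK-like cells was chosen after its values were seen. The calling rule was run on simulated Poisson sums, the model that its intervals assume. That run had no spread between cells and so cannot show how the rule handles such spread.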

Additional observations from a re-analysis of the deposited data

Results flagged for a closer look

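Member RNA was also found in barcodes that failed the filters and enter no comparison. The 857 EYFP positive barcodes left out held 26 member UMIs, 20.6 CPM (13.5 to 30.2), with 11 of Nkg7, 6 of Klrd1 and 5 of Ctsw. The 192 EYFP negative barcodes left out held 27 member UMIs, 61.6 CPM (40.6 to 89.6), with 8 of Klrk1, 5 of Klrd1, 5 of Il2rb, 4 of Ctsw, 3 of Nkg7 and 2 of Gzma. Both levels lie above the limits that a count of 0 allows, 2.38 CPM in the EYFP positive and 6.84 CPM in the EYFP negative library. They compare with 43.1 CPM in EYFP positive and 69.6 CPM in EYFP negative B-like and non-lymphoid cells that were kept. Gzmb, Prf1 and Eomes had 0 UMIs in the barcodes left out of either library.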

How the results depend on the processing

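No paired analysis was possible because each group has 1 library. The depth gap limits the EYFP positive NK-like cells most: 3 UMIs there are 99.1 CPM, so low genes such as Gzmb could not be called lower by 2-fold. The NK-like class changed with the settings. At resolution 2.0, 35.6% of EYFP positive and 81.0% of EYFP negative NK-like cells had Cd3 or Trac RNA, against 15.2% and 28.6% here. Each main value was counted once under each alternative, and 128 of these pairs stayed within their error and 44 moved. Of the same pairs for the other values, 675 stayed, 111 moved and 1 reversed. The causes of the moves were not tested. Paired values are for the EYFP positive and the EYFP negative library. At resolution 2.0 the NK-like over T-like sum was 2.43 and 4.68, CD8 over CD4 was 9.82 and 9.53, and EYFP positive over EYFP negative NK-like was 0.498. The T-like share was 16.6% and 55.7%, and EYFP positive T-like cells with a member were 50.4%. EYFP negative NK-like cells were 14.3%, of which 30.4% had at least 3 members. The Klrd1 ratio of NK-like over T-like EYFP positive cells was 0.886 (0.449 to 1.62). It was counted as reversed since it fell below 1, though its interval contained 1. With 500 genes or more and no more than 10% mitochondrial UMIs, the T-like ratio was 1.05, NK-like over T-like was 2.89 and 6.17, CD8 over CD4 was 14.7 and 11.2, and the NK-like ratio was 0.493. The T-like share was 17.2% and 50.8%. EYFP positive T-like cells with a member were 69.6% and with at least 3 were 32.1%, and those NK-like shares were 100% and 66.7%. EYFP negative NK-like cells were 11.7%, of which 58.7% had at least 3. With a receptor gate per barcode, NK-like over T-like was 4.06 and 10.5, and EYFP positive T-like cells with a member were 51.7%. With at least 1000 UMIs per cell, EYFP positive T-like cells with a member were 62.9% and with at least 3 were 21.0%. EYFP positive NK-like cells were then 2.08%, of which 100% had a member and 55.6% at least 3. As a mean over cells the T-like ratio was 0.775, and NK-like over T-like was 8.70 and 21.1. Thinned to 1000 UMIs, EYFP negative NK-like over T-like was 21.1, T-like cells with a member were 34.8% and 32.8%, T-like cells with at least 3 were 1.80% and 2.22%, and EYFP positive NK-like cells with a member were 98.0%. EYFP negative NK-like over T-like was 13.6 without acinar, mitochondrial and ribosomal genes in the total, and 15.5 without the 1 cell with the most member UMIs. The EYFP positive B-like and non-lymphoid level was 20.6 CPM in failed barcodes. Counting the T receptor barcodes of the Rbpjl-led cluster as T-like, and leaving out the T-like cluster with EYFP positive cells only, were chosen after the data were seen, as was leaving out the top cell of both groups compared. Leaving out replicates was not possible.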
